A study of Mus musculus with 11 samples.

Results

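Smg6-iKO cells were compared with untreated cells of the same genotype, as far as possible within the same embryo. Both groups were NPC (neuroprogenitor cell) cultures from E13.5 mouse brains (strain C57BL/6 mixed with 129SV) that carried Smg6 flox/flox and 1 copy of RosaCreER, the CreERT2 recombinase expressed from the ubiquitous Rosa26 locus. The Ctr group (n = 3, embryos SMH_128, SMH_132 and SMH_133) received no 4-hydroxytamoxifen (4-OHT), the ligand that activates CreERT2. The Smg6-iKO group (n = 4, embryos SMH_127, SMH_128, SMH_132 and SMH_133) received 1 µM 4-OHT for 3 days per the labels, and RNA was taken 6 days after its start. These 7 of the 11 RNA-seq libraries were picked by genotype and treatment labels, and the comparison was chosen with earlier results of these data known. Embryos SMH_128, SMH_132 and SMH_133 each gave 1 library to both groups, so the comparison rested on 3 pairs, and embryo SMH_127, with a Smg6-iKO library alone, entered the fit without bearing on the fold change. A further 4 libraries (Ctr + 4-OHT, Smg6 flox/flox cells without RosaCreER, embryos SMH_125, SMH_126, SMH_129 and SMH_131, treated with 4-OHT) are given beside the results where they bear on them. Smg6-iKO and Ctr differ in exposure to 4-OHT and in active recombinase as well as in the Smg6 deletion, and these cannot be told apart within this comparison. Ctr + 4-OHT against Ctr shares the 3 Ctr libraries, and also differs from it in the RosaCreER genotype and in the embryos, so its values are set beside the others and not tested against them.

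SMG6 is the endonuclease of nonsense-mediated mRNA decay (NMD). In this pathway UPF1, phosphorylated by SMG1 (whose activity SMG8 and SMG9 control), recruits SMG6, which cuts the transcript near a premature stop codon, or SMG5 and PNRC2, which lead it to decapping and deadenylation. NMD also removes many normal transcripts, among them mRNAs of its own factors, splice isoforms with a premature stop codon and spliced RNAs of genes that host small nucleolar RNAs (snoRNAs). Neural progenitors of the embryonic brain divide, renew themselves under Notch and FGF signals and give rise to neurons and glia.

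The 7 libraries held 26478257 to 33756875 reads assigned to genes. Of the markers of other cell types, the 6 of microglia summed to at most 1.79 CPM (counts scaled to a common library size, after TMM normalization over 11 libraries) and the 4 of erythroid cells to at most 0.57 CPM in any library. The 5 endothelial markers summed to 4.73 to 7.58 CPM. The 5 meningeal fibroblast markers summed to 369 to 530.3 CPM in Ctr and 274 to 1512 CPM in Smg6-iKO, highest in embryo SMH_127. Y-linked and X-inactivation genes gave the same sex in both libraries of each pair. In the female pair, Ddx3y stood at 1.64 CPM in Ctr and 0.348 CPM in Smg6-iKO, against 97.4 to 132.8 CPM in male libraries. Esr1, whose reads can include those of the receptor part of CreERT2, stood at 4.09, 4.12 and 4.66 CPM in Ctr and 3.88, 3.98 and 4.71 CPM in Smg6-iKO of the 3 pairs. It stood at 0.0323 to 0.282 CPM in Ctr + 4-OHT, whose embryos lacked RosaCreER. Where in the gene these reads lie was not examined.

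Smg6 itself (ENSMUSG00000038290, chromosome 11 from 74925823 to 75164448 on GRCm38) had 69.4, 79.3 and 74.2 CPM in the Ctr libraries of embryos SMH_128, SMH_132 and SMH_133 and 62.2, 71.8 and 67.4 CPM in the Smg6-iKO libraries of the same embryos. All 3 pairs were lower after 4-OHT, with log2 differences of -0.16, -0.14 and -0.14, and the library of embryo SMH_127 had 62.5 CPM. The fitted log2 fold change was -0.15 (SE, the standard error, 0.049, adjusted p = 0.043, edgeR with the embryo as block). Without the block the adjusted p was 0.148, and over the 16 alternative settings (normalizations, filters, tools and embryos left out) it ranged from 0.0155 to 1. Ctr + 4-OHT had 66.5, 71.9, 72.2 and 66.5 CPM of Smg6, a range that overlaps both other groups. Its log2 fold change against Ctr was -0.10, not called (adjusted p = 0.724, edgeR). Reads were counted over the whole gene, so these values do not measure the loss of the floxed exons.

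Of 17974 genes tested with the embryo as block, 3854 (21.4%) had an adjusted p under 0.05, 1843 (10.3%) higher and 2011 (11.2%) lower in Smg6-iKO. An unadjusted p under 0.05 was reached by 6069 genes. Most changes were small, with a median log2 fold change of 0.34 among the higher and -0.25 among the lower genes, and 134 of the called genes exceeded 1 in absolute value, 115 of them higher. Without the block 1663 genes (9.25%) were called, 1657 of them also called with it. How the calls divided by direction moved with the scaling and the tool. RLE scaling gave 1680 rises and 2053 falls. Upper-quartile normalization, under which the median of all genes was 0.036 on the log2 scale, gave 2346 rises and 1505 falls. A correction for gene length gave 1344 rises and 2732 falls. DESeq2 with the block, which differed in the tool and in the genes tested (12845), called 666 higher and 1376 lower genes. By biotype, 1661 of 14079 tested protein-coding genes were called higher (11.8%) and 1929 lower (13.7%). The shares were 8.59% and 2.48% of 524 long intergenic non-coding RNAs, 10.96% and 1.66% of 301 processed transcripts, 4.84% and 1.61% of 434 antisense transcripts, and 0.81% and 3.73% of 617 processed pseudogenes, all on the scaling of the TMM fit. The count also rested on single embryos, with 1742 genes called without embryo SMH_133, 2644 without embryo SMH_132 and 5164 without embryo SMH_128. With all 11 libraries and no block, which called 796 genes, 50 genes of mitosis and cytokinesis, 42 replication-dependent histones and 14 replication genes fell, 11 snoRNA host genes and 11 genes of the stress response driven by the transcription factor ATF4 rose, and 2 genes of the Notch pathway and 3 of the astrocyte lineage fell. Between Ctr + 4-OHT and Ctr, 39 of 17665 genes (0.221%) were called, 32 of them lower.

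The 12 largest rises among genes with a mean of at least 3 CPM were those of 4 long non-coding RNAs that host snoRNAs and of 8 predicted genes. Of the 12, the 3 largest belonged to hosts. Of 22 tested genes listed as hosts without a long reading frame, 17 rose, against 10.3% of all genes, and the other 5 did not pass the test (14 rose without the block). The median log2 fold change of the 22 was 0.39, against 0.004 over all genes tested. Zfas1 (chromosome 2 from 167062934 to 167065862), the host of snoRNAs of the Snord12 family, stood at 73.2, 79.99 and 84.1 CPM in Ctr of embryos SMH_128, SMH_132 and SMH_133 and at 389, 358 and 366 CPM in Smg6-iKO. All 4 Smg6-iKO libraries (embryo SMH_127, 329.6 CPM) lay above all Ctr libraries and above the 4 Ctr + 4-OHT libraries (61.1 to 82.2 CPM). It rose by 2.23 on the log2 scale (SE 0.059, adjusted p = 7.14e-14, edgeR), or 4.70-fold.

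1110038B12Rik (chromosome 17 from 34950238 to 34952471) went from 68.6, 67.8 and 83.3 CPM to 288, 255 and 268 CPM in the 3 pairs, so that it rose by 1.89 (SE 0.063, adjusted p = 1.77e-12, edgeR). Epb41l4aos, annotated as a long intergenic non-coding RNA, went from 27.7, 25.9 and 28.3 CPM to 114, 91.1 and 90.9 CPM, a rise of 1.85. 2410006H16Rik rose from 151, 147 and 154 CPM to 493, 422 and 432 CPM. In each of these genes the 2 groups were apart, and Ctr + 4-OHT was near Ctr, with log2 fold changes against Ctr of -0.05, -0.21 and -0.18 that were not called. Gas5, the host of many box C/D snoRNAs, rose by 1.12 and the Snhg family members Snhg12, Snhg6, Snhg8, Snhg1 and Snhg5 by 1.5, 1.27, 1.13, 1.05 and 0.96.

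The rises lay in 2 ranges. In 10 host genes the log2 fold change was 0.96 or more, and in the other 7 that rose it lay between 0.22 and 0.40. The lower range held the imprinted genes Meg3 (0.38, adjusted p = 0.000132, edgeR) and Rian (0.30). Meg3 is counted here as a member of the list and not as a shown host of snoRNAs. In all 10 genes of the upper range the pair of embryo SMH_128 had the largest difference, with 2.41, 2.16 and 2.12 for Zfas1, 1.28, 1.07 and 0.99 for Gas5 and 1.49, 1.16 and 1.14 for Snhg6 in embryos SMH_128, SMH_132 and SMH_133. Against Ctr, the 22 listed genes in Ctr + 4-OHT had log2 fold changes between -0.22 and 0.28.

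**Figure D1:**
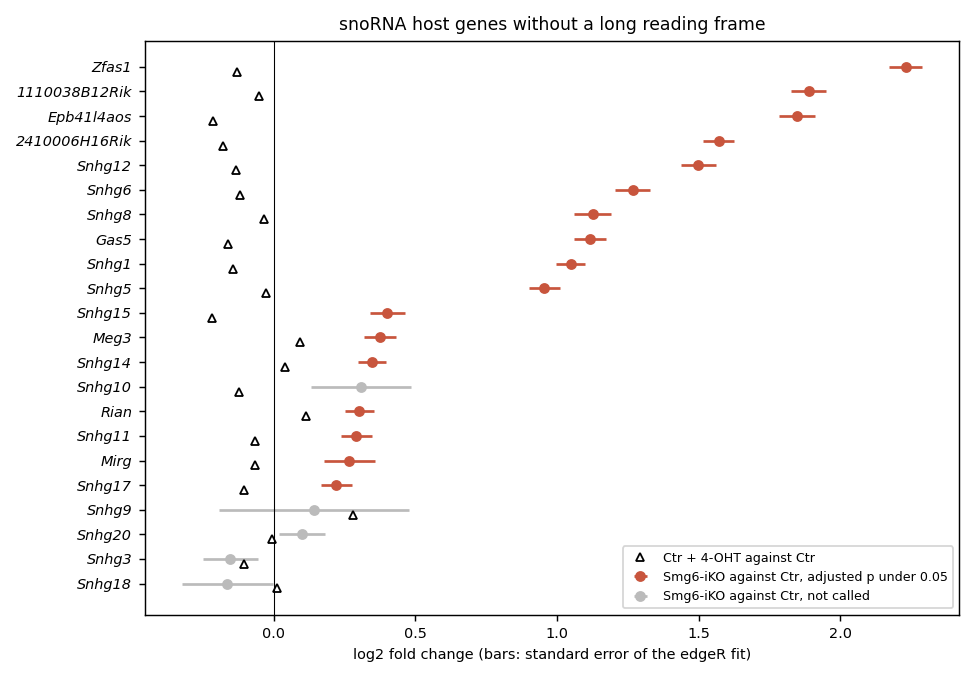
Log2 fold change of the 22 tested genes listed as snoRNA hosts in Smg6-iKO against Ctr with the embryo as block (circles, bars are standard errors, grey where not called) and in Ctr + 4-OHT against Ctr (open triangles). The 10 genes from Zfas1 to Snhg5 lie at 0.96 or more, whereas the triangles lie between -0.22 and 0.28.

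**Figure D2:**
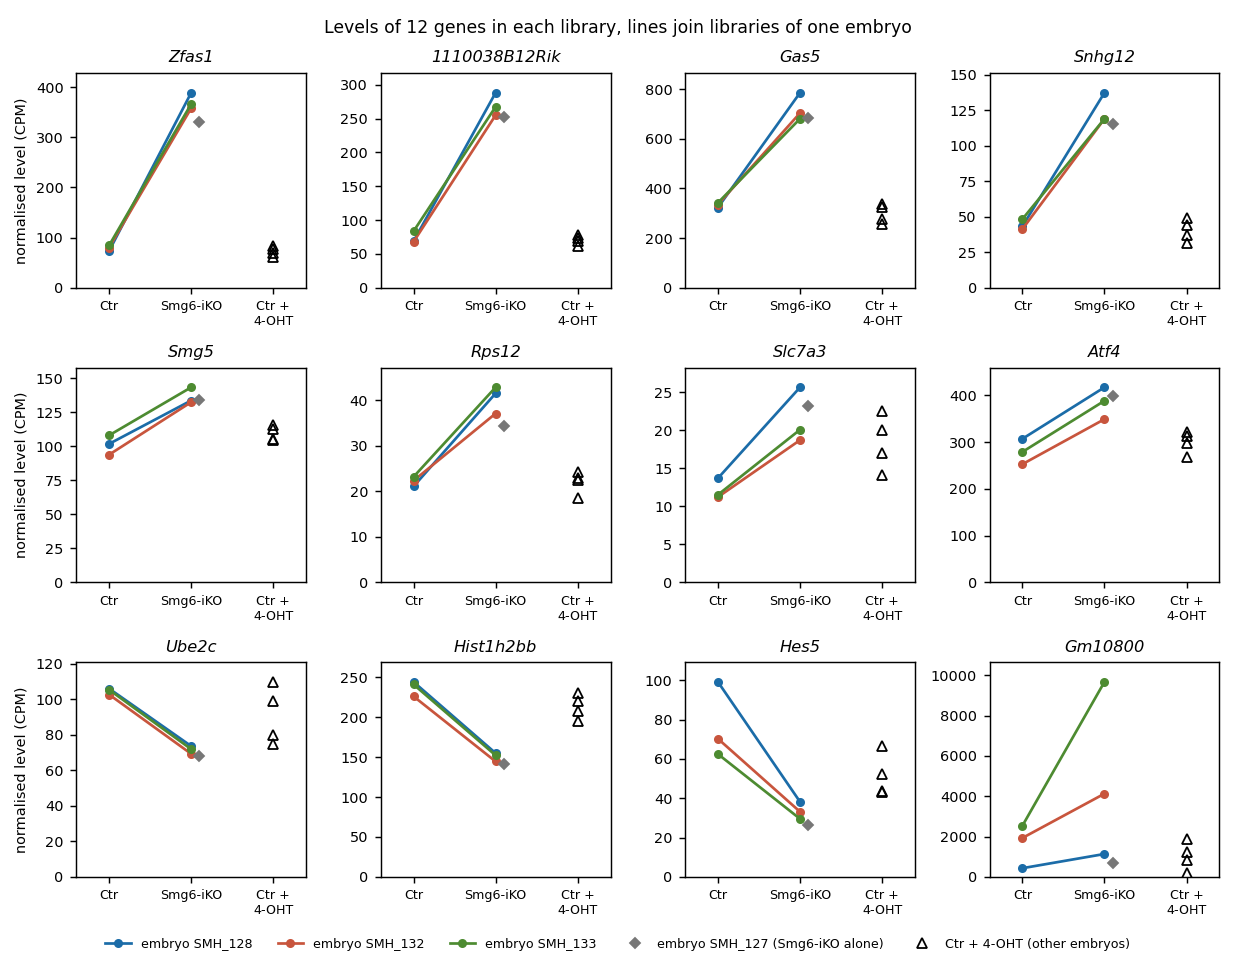
CPM of 12 genes in each library of Ctr, Smg6-iKO and Ctr + 4-OHT, where lines join the libraries of one embryo and the diamond is embryo SMH_127, which has no Ctr library. Every line of a gene runs the same way, and for Gm10800 the embryos differ more than the groups.

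The 8 predicted genes among the 12 largest rises share sequence. They were Gm10715, Gm26870, Gm10720, Gm17535, Gm10719, Gm11168 and Gm10722 on chromosome 9 and Gm10801 on chromosome 2, with log2 fold changes between 1.53 and 1.80 (edgeR with the block). Gm10800, which lies beside Gm10801, was added after its values were seen because it held most of their counts. Between 34.3% and 88.9% of the 31-base words in the transcripts of each of these 9 genes occurred in transcripts of the others, so their single values are uncertain. Gm10800 stood at 428, 1926 and 2531 CPM in Ctr and 1133, 4126 and 9674 CPM in Smg6-iKO of embryos SMH_128, SMH_132 and SMH_133. Each pair rose, while the library of embryo SMH_127 (705 CPM) lay below 2 of the Ctr libraries, and Ctr + 4-OHT ranged from 175 to 1874 CPM. Together the 9 genes took 0.0481% to 0.301% of the counts in Ctr, 0.0839% to 1.18% in Smg6-iKO and 0.0200% to 0.219% in Ctr + 4-OHT. The ratio of Smg6-iKO to Ctr of their summed CPM was 2.72, 2.15 and 3.81 in the pairs SMH_128, SMH_132 and SMH_133. The call depended on the pairing: without the block the log2 fold change of Gm10800 was 1.26 with an adjusted p of 0.348 (edgeR). It was called under 12 of 16 alternatives, with an adjusted p of at most 0.437, and the smallest adjusted p of the 9 genes without the block was 0.265.

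Of 13 tested NMD factors 5 rose and 2 fell, against 10.3% of all genes higher and 11.2% lower. The falls were Smg6, the deleted gene itself, and Pnrc2. The counts were 2 and 0 without the block, 4 and 0 without embryo SMH_132, and 2 and 1 without embryo SMH_133, and the median log2 fold change was 0.08. Smg5, an adaptor of the branch of the pathway that does not cut the transcript, went from 102, 93.8 and 108 CPM to 134, 132.4 and 143 CPM in embryos SMH_128, SMH_132 and SMH_133, and no Smg6-iKO library overlapped Ctr. Its log2 fold change was 0.43 (SE 0.047, adjusted p = 5.66e-06, edgeR), against 0.12 (adjusted p = 0.696) in Ctr + 4-OHT against Ctr. Smg9 rose by 0.32 (adjusted p = 0.00141, edgeR). Smg1, the kinase of UPF1, rose by 0.15 (adjusted p = 0.0346, without the block 0.0833, over the 16 alternatives 0.0102 to 1). The log2 fold change of Upf1, the central helicase, was 0.22 (adjusted p = 0.0124, edgeR), but its pairs gave 0.03, 0.32 and 0.30, and it was not called without the block (adjusted p = 0.172), without embryo SMH_132 or without embryo SMH_133, with a range of 6.16e-08 to 0.728. Pnrc2, which links UPF1 to decapping, had -0.22 (adjusted p = 0.00678, edgeR), with 0.0649 without the block and 1.23e-05 to 0.727 over the 16 alternatives.

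Splicing regulators, whose own mRNAs are often limited by isoforms with premature stop codons, had list medians near 0 in their gene totals (-0.06 for SR factors and -0.04 for hnRNP proteins). Of 13 SR factors, Srsf6 alone was called, at 0.24 (adjusted p = 0.00195, edgeR), while without embryo SMH_128 and under the correction for gene length 3 members were called lower. Of 28 hnRNP and related proteins 2 rose and 6 fell, against 10.3% of all genes higher and 11.2% lower (1 and 1 without the block, 2 and 3 without embryo SMH_132, 1 and 2 without embryo SMH_133), with Hnrnpdl at 0.23 and Hnrnpul1 at -0.28. Gene totals do not separate isoforms.

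Of 81 cytosolic ribosomal protein genes 36 fell and 3 rose, against 10.3% of all genes higher and 11.2% lower (17 and 3 without the block, 11 and 3 without embryo SMH_133), with a median of -0.15. With all 11 libraries and no block the counts were 4 and 3. In all, 14 of the 81 log2 fold changes were above 0. Rps12 went from 21.0, 22.3 and 23.1 CPM to 41.5, 37.0 and 42.8 CPM in the pairs, 0.87 on the log2 scale (SE 0.067, adjusted p = 1.23e-07, edgeR). Rpl12 rose by 0.68 and Rpl10a by 0.49. In Ctr + 4-OHT against Ctr the same 3 genes had -0.01, -0.15 and 0.02, and the list median was -0.10. Among the falls was Rpl36al (-0.51, adjusted p = 0.00111, edgeR). Ribosomal protein genes have many processed copies, and reads that mapped to several places were not counted, so levels of this list are partial.

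Most genes of the amino acid response rose. ATF4 is the transcription factor translated when the kinase pathway that phosphorylates eIF2alpha is active, and its targets import amino acids, make them and charge tRNAs. Of 36 tested genes 23 rose and 1 fell, against 10.3% of all genes higher and 11.2% lower (15 and 1 without the block), with a median log2 fold change of 0.26. The pair medians were 0.27, 0.26 and 0.22 in embryos SMH_128, SMH_132 and SMH_133. Slc7a3, a cationic amino acid transporter, went from 13.7, 11.2 and 11.5 CPM to 25.6, 18.7 and 20.1 CPM, and no Smg6-iKO library overlapped Ctr (embryo SMH_127, 23.2 CPM). The rise was 0.82 on the log2 scale (SE 0.076, adjusted p = 1.14e-06, edgeR). The pseudokinase gene Trib3 rose by 0.75, the transcription factor Atf5 by 0.68, the mitochondrial PEP carboxykinase Pck2 by 0.67, the cystine transporter Slc7a11 by 0.61 and Asns, asparagine synthetase, by 0.39.

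Atf4 itself stood at 307, 253 and 279 CPM in Ctr and 417, 349 and 388 CPM in Smg6-iKO, a rise of 0.46 (SE 0.048, adjusted p = 3.69e-06, edgeR). The only fall in the list was Ddit4, an inhibitor of mTOR signalling, at -0.41 (adjusted p = 2.78e-05, edgeR). In Ctr + 4-OHT against Ctr the median of the list was 0.18. None of the following passed the test there: Slc7a3 had 0.60 (adjusted p = 0.296), Slc7a11 0.69 (adjusted p = 0.174), Asns 0.48 (adjusted p = 0.257) and Atf4 0.10 (adjusted p = 0.779, edgeR). The part of 4-OHT in the rise of these genes cannot be told apart from that of the deletion. Of 25 chaperones and sensors of the endoplasmic reticulum 4 fell (1 without the block, 8 without embryo SMH_128 and none without embryo SMH_133) and the other 21 did not pass, near the background, at a list median of -0.05.

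ATF4 binds composite C/EBP-ATF elements. The list is one of ATF4 targets, so its choice favours this element, and the shares below were not tested. A core of this element, TGATGNAA on either strand, was in 40% of the 20 RefSeq promoter windows (250 bases before to 50 after the start, GRCm38.p6) found for 17 of the 23 genes that rose, in 23.1% of the 13 windows of listed genes that were not called, in 2.28% of the windows of all genes tested and in 3.97% of all windows. The bases before the start of 3 of the genes are shown, 5′ to 3′ on the gene's strand, because they hold the element in 1 or 2 copies, printed in capitals. They lie at chr6:7693210-7693289 (minus strand), chr3:50443614-50443693 (minus strand) and chr14:55540146-55540265 (plus strand).
Asns: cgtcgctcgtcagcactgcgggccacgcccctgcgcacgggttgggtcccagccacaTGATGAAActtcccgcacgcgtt
Slc7a11: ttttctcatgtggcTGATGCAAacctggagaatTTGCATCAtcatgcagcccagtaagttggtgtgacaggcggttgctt
Pck2: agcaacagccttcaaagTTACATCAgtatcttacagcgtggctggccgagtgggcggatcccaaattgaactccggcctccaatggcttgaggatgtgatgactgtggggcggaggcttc

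Most genes of mitosis and most histone genes fell. In a bulk culture, fewer cells of a type or phase and less RNA per cell cannot be told apart. Of 83 tested genes of mitosis and cytokinesis 75 fell, against 11.2% of all genes, and the other 8 did not pass the test (70 fell without the block). The list median was -0.37, with -0.29, -0.43 and -0.39 in the pairs of embryos SMH_128, SMH_132 and SMH_133 and -0.03 in Ctr + 4-OHT against Ctr. Ube2c, the ubiquitin-conjugating enzyme of the anaphase-promoting complex, went from 106, 103 and 105 CPM to 73.6, 69.2 and 71.8 CPM, with every Smg6-iKO library below every Ctr library. It fell by 0.55 on the log2 scale (SE 0.048, adjusted p = 5.58e-07, edgeR). Ctr + 4-OHT spread from 74.7 to 109.7 CPM, a range that holds all Ctr libraries. The proliferation marker Mki67 fell by 0.53, the chromosome-associated phosphatase subunit Cdca2 fell by 0.52, the spindle midzone protein Prc1 fell by 0.51 and the mitotic kinase Cdk1 fell by 0.41.

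Promoters of mitotic genes often hold a cell cycle genes homology region and CCAAT boxes. The letters TTTGAA were, on either strand, in 73.5% of the 68 windows of the genes that fell (46 of 64 genes with a window), in 11.9% of the windows of all tested genes and in 17.9% of all windows. For CCAAT the shares were 73.5%, 37.4% and 37.4%, and both were present in 60.3%, 4.76% and 6.95%. Of the 7 genes of the list that were not called and had a window, 1 held TTTGAA. The bases up to the start of Ube2c, Prc1, Mki67 and Cdk1 are shown for the order of these letters, which are in capitals on either strand and do not overlap in these genes. The 2 kinds lie within the last 200 bases before the start, and the TTTGAA next to the start is nearer to it than every CCAAT. They lie at chr2:164769809-164769928 (plus strand), chr7:80294356-80294475 (plus strand), chr7:135716380-135716579 (minus strand) and chr10:69352913-69353032 (minus strand).
Ube2c: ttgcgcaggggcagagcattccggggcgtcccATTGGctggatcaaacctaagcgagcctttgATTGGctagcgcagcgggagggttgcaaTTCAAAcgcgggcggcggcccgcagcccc
Prc1: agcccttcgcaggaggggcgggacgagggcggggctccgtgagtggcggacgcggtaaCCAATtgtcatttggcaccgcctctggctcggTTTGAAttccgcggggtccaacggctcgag
Mki67: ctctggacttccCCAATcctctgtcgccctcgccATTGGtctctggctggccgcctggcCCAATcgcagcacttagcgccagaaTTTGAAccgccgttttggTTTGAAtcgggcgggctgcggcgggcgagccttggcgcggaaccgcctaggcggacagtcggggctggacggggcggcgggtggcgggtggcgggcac
Cdk1: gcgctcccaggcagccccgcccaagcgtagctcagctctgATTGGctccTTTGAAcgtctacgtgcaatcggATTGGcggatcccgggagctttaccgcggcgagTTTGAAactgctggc

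Replication-dependent histones, made in S phase, fell in 51 of 55 tested genes, against 11.2% of all genes (45 without the block), with a median of -0.45 and pair medians of -0.46, -0.39 and -0.47. Hist1h2bb went from 244, 226 and 241 CPM to 155, 145 and 152 CPM, -0.65 on the log2 scale (SE 0.047, adjusted p = 5.96e-08, edgeR). The pairs gave nearly the same difference, -0.66, -0.65 and -0.66. Hist1h2bp, Hist1h2af and Hist1h2ad had log2 fold changes of -0.69, -0.61 and -0.61. Histone genes are near copies of each other, and reads shared between them were not counted.

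Of 54 genes of DNA replication 32 fell and 1 rose, against 10.3% of all genes higher and 11.2% lower (20 and 1 without the block), but without embryo SMH_133 only 8 fell and without embryo SMH_128 39 fell, with a median of -0.22. Gmnn, the inhibitor of replication licensing, went from 27.6, 26.7 and 27.1 CPM to 19.4, 17.3 and 18.8 CPM, -0.55 on the log2 scale (SE 0.069, adjusted p = 2.41e-05, edgeR). Dbf4, which activates the CDC7 kinase, fell by 0.35 and Mcm6, a subunit of the replicative helicase, fell by 0.34. Orc4, of the origin recognition complex, rose by 0.32 (adjusted p = 0.000727, edgeR). Among 40 genes of homologous recombination and Fanconi repair 15 fell and 1 rose (8 and 1 without the block, 5 and 1 by DESeq2 with the block, 5 and 2 without embryo SMH_132, 7 and 1 without embryo SMH_133), with Rad51ap1 at -0.38 and H2afx at -0.33. Of the pairs, embryo SMH_128 had the smallest median in mitosis and in replication (-0.12, -0.22 and -0.26 for replication in embryos SMH_128, SMH_132 and SMH_133).

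Of 20 E2F, FOXM1 and MYB regulators of these genes 7 fell, against 11.2% of all genes (5 without the block, 4 by DESeq2 with it, 11 without embryo SMH_128 and 4 without embryo SMH_132) and the rest did not pass the test, while 18 of the 20 log2 fold changes were below 0. Foxm1, which drives mitotic genes, went from 74.7, 74.5 and 75.4 CPM to 52.2, 56.2 and 55.6 CPM, -0.45 on the log2 scale (SE 0.052, adjusted p = 9.57e-06, edgeR), and E2f8 fell by 0.31. Of 8 tested CDK inhibitors, which hold cells in G1, 4 fell and 1 rose, against 11.2% of all genes lower and 10.3% higher. The falls numbered 3 without the block, and the rise was lost without the block, without embryo SMH_128 and by DESeq2. Cdkn1c went from 96.1, 106 and 97.0 CPM to 72.7, 79.98 and 60.2 CPM (-0.50, adjusted p = 1.15e-05, edgeR), Cdkn1b fell by 0.47 and Cdkn2c fell by 0.38.

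Trp53, encoding p53, had 41.5, 42.2 and 47.0 CPM in Ctr and 39.7, 47.1 and 48.2 CPM in Smg6-iKO, overlapping ranges, and changed by 0.05 on the log2 scale, which did not pass the test (SE 0.059, adjusted p = 0.636, edgeR). Of 40 tested p53 targets 16 rose and 1 fell, against 10.3% of all genes higher and 11.2% lower. The rises numbered 6 without the block and 1 with all 11 libraries and no block. The list median was 0.13, and -0.07 in Ctr + 4-OHT against Ctr. Pvt1, a long non-coding RNA, rose by 0.60 (adjusted p = 4.31e-06, edgeR) from 41.0, 47.3 and 42.6 to 69.6, 63.0 and 65.4 CPM. Pmaip1, the BH3-only protein NOXA, rose by 0.53 (adjusted p = 0.000563, edgeR).

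**Figure D3:**
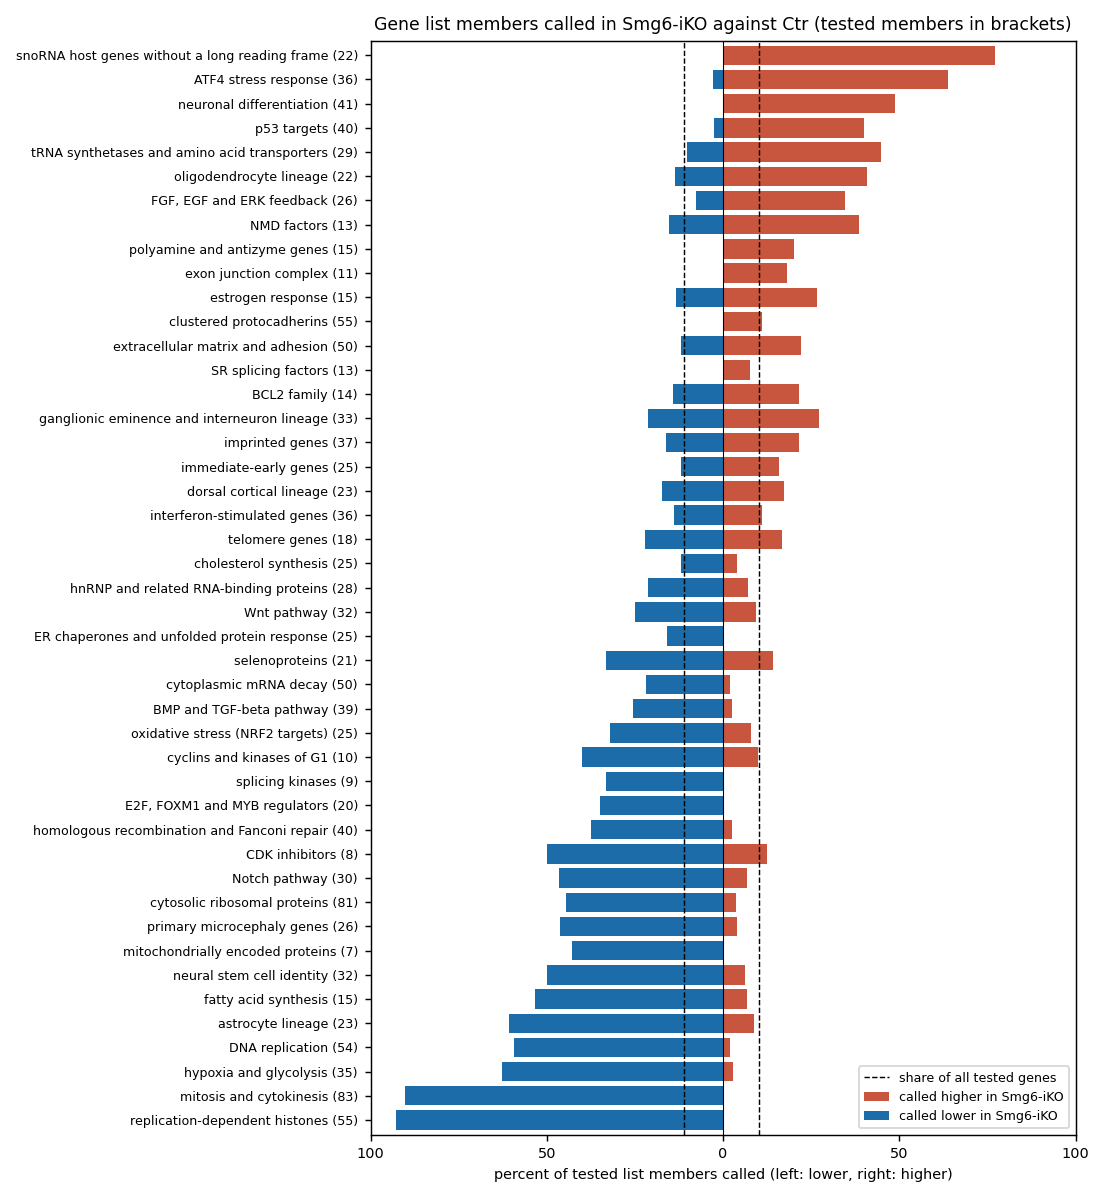
Share of the tested members of each gene list called higher (right) or lower (left) in Smg6-iKO against Ctr with the embryo as block. Dashed lines mark the shares of all tested genes, 10.3% higher and 11.2% lower, and snoRNA hosts and ATF4 genes stand at the top, mitotic and histone genes at the bottom.

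Of 32 tested genes of neural stem cell identity 16 fell and 2 rose, against 10.3% of all genes higher and 11.2% lower (9 and 1 without the block, and 6 and 0 with all 11 libraries and no block), with a median of -0.16. Hes5, the Notch effector that keeps progenitors undifferentiated, went from 99.3, 70.3 and 62.5 CPM to 38.2, 33.1 and 29.5 CPM in embryos SMH_128, SMH_132 and SMH_133, and embryo SMH_127 had 26.4 CPM. No Smg6-iKO library overlapped Ctr. Its log2 fold change was -1.19 (SE 0.064, adjusted p = 1.08e-09, edgeR), the largest fall in the list. Ctr + 4-OHT lay above Smg6-iKO and overlapped Ctr at its upper end, at 43.4 to 66.6 CPM, with a log2 fold change against Ctr of -0.59 (adjusted p = 0.401, edgeR). The membrane protein Prom1 fell by 0.52, the receptor Fgfr2 fell by 0.47 and Sox2, the pluripotency and progenitor factor, fell by 0.40. In Ctr + 4-OHT against Ctr these 3 had -0.27, -0.39 and -0.25, with adjusted p of 0.537, 0.184 and 0.679 (edgeR).

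Of 30 genes of the Notch pathway 14 fell and 2 rose, against 10.3% of all genes higher and 11.2% lower. Without the block 7 fell, without embryo SMH_133 6, and by DESeq2 with the block 4, and in these fits the rises were lost. Upper-quartile normalization gave 9 falls and 3 rises. Its transcriptional targets Hey1 and Nrarp fell, with -0.47 and -0.38. In Ctr + 4-OHT against Ctr they had -0.36 and -0.08, not called (adjusted p = 0.532 and 0.752, edgeR). The list median was -0.13, with -0.09 in Ctr + 4-OHT against Ctr. The 10 defining markers of neural stem cells were all detected and summed to 6219.7 to 6708 CPM in Ctr, 5265 to 6157 CPM in Smg6-iKO and 5609 to 6859.9 CPM in Ctr + 4-OHT, a range that covers that of Ctr and overlaps that of Smg6-iKO. Their median log2 fold change was -0.32 in Smg6-iKO and -0.22 in Ctr + 4-OHT, both against Ctr.

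Of 41 genes of neuronal differentiation 20 rose, against 10.3% of all genes, and the other 21 did not pass the test (6 rose without the block, 1 with all 11 libraries and no block, 13 without embryo SMH_132 and 30 without embryo SMH_128), with a median of 0.17. Stx1a, a syntaxin of synaptic vesicle fusion, went from 26.3, 20.7 and 26.3 CPM to 36.1, 34.6 and 37.4 CPM, 0.57 on the log2 scale (SE 0.069, adjusted p = 1.83e-05, edgeR). The neurofilament genes Nefl and Ina rose by 0.46 and 0.35. Tubb3, the neuronal tubulin, rose by 0.37 (adjusted p = 0.000222 with the block and 0.0534 without it, over the 16 alternatives 2.51e-15 to 0.324, edgeR). The 6 neuron markers summed to 869 to 1072 CPM in Ctr, 1158 to 1479 CPM in Smg6-iKO and 785 to 1609.9 CPM in Ctr + 4-OHT, where the spread between embryos covered both other groups. With the block 5 of the 6 were called higher, and these calls were lost without it. The median of the neuronal list in Ctr + 4-OHT against Ctr was 0.18, against 0.17 in Smg6-iKO.

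Regional identity genes were called in both directions, against 10.3% of all genes higher and 11.2% lower. Of 33 genes of the ganglionic eminence and interneuron lineage 9 rose and 7 fell (2 and 5 without the block). The rises rested on single embryos and on the tool, with 1 without embryo SMH_132, 4 without embryo SMH_133, 14 without embryo SMH_128 and 1 by DESeq2 with the block, whereas the falls in the same fits were 6 or 7. Dlx1, a homeobox gene of interneuron progenitors, went from 19.2, 18.2 and 23.5 CPM to 22.7, 26.9 and 30.8 CPM (0.40, adjusted p = 0.000825, edgeR), whereas Dlx2 had 0.20 (adjusted p = 0.286, edgeR). The zinc finger gene Sp8 fell by 0.57 and Maf fell by 0.48, the latter also called in Ctr + 4-OHT against Ctr (-0.53, adjusted p = 0.0329, edgeR). Sp8 had -0.29 there, not called (adjusted p = 0.575, edgeR). Of 23 dorsal cortical genes 4 rose and 4 fell (2 and 3 without the block). Without embryo SMH_128 the counts were 9 and 5, without embryo SMH_132 2 and 8, and without embryo SMH_133 2 and 4. Among them Pax6, the dorsal progenitor factor, fell by 0.44 and Bhlhe22, of post-mitotic neurons, rose by 0.41. In Ctr + 4-OHT against Ctr Pax6 had -0.28 and Bhlhe22 0.67, neither called (adjusted p = 0.527 and 0.711, edgeR). Bhlhe22 ranged there from 19.9 to 91.5 CPM.

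Astrocyte lineage genes fell in 14 of 23 tested and rose in 2, against 10.3% of all genes higher and 11.2% lower (5 and 1 without the block, 9 and 2 without embryo SMH_133). The list median was -0.22, with -0.13 in Ctr + 4-OHT against Ctr. Gfap, the astrocytic intermediate filament, was 1 of those that rose, from 26.2, 16.1 and 10.6 CPM to 47.5, 40.3 and 25.7 CPM, with 63.6 CPM in embryo SMH_127. Each pair rose (0.86, 1.32 and 1.27), but the groups overlapped, and Ctr + 4-OHT ranged from 5.13 to 78.2 CPM. It rose by 1.13 on the log2 scale (SE 0.082, adjusted p = 5.96e-08, edgeR). The 4 astrocyte markers summed to 436 to 509.5 CPM in Ctr and 427 to 515 CPM in Smg6-iKO, 2 of the 4 being called higher.

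**Figure D4:**
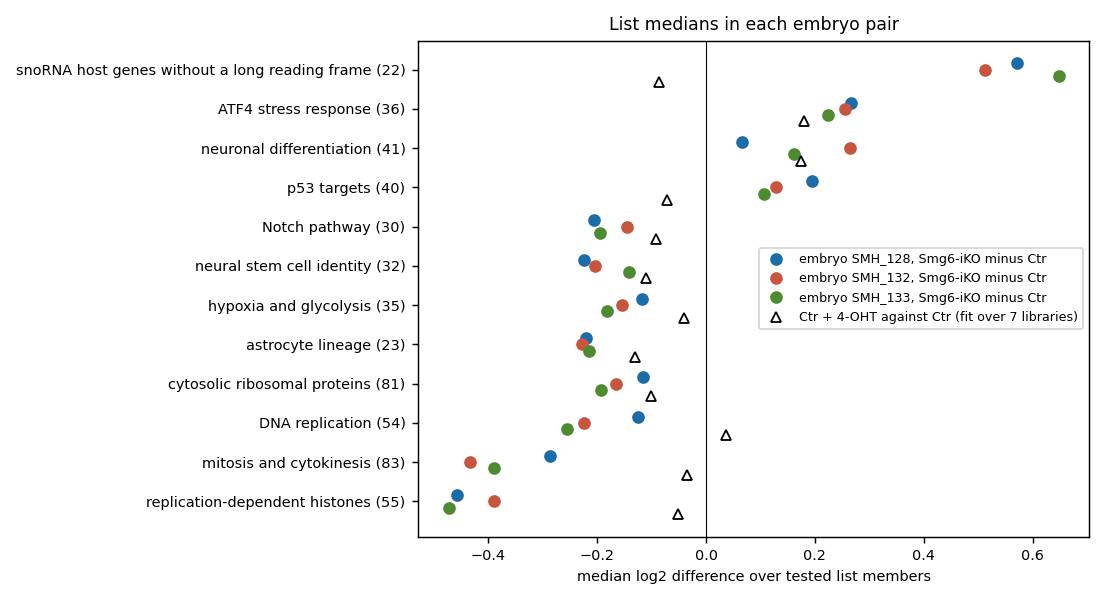
Median log2 difference of Smg6-iKO minus Ctr over the tested members of 12 lists in each embryo pair (circles), and the median log2 fold change of Ctr + 4-OHT against Ctr (open triangles). The 3 pairs lie on one side of 0 in every list shown. The lists were selected, and in others, such as the ganglionic eminence, dorsal cortical, matrix and interferon lists, the pairs differ in sign. The triangles lie near 0 for mitosis, histones and replication but at 0.18 for ATF4 and neuronal genes. They lie at -0.13 for astrocyte, -0.11 for stem cell, -0.10 for ribosomal protein and -0.09 for Notch genes. For snoRNA hosts and p53 targets they lie at -0.09 and -0.07, opposite in sign to the pairs.

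Of 35 tested genes of hypoxia and glycolysis (34 symbols, Aldoa standing for 2 gene identifiers) 22 fell and 1 rose, against 10.3% of all genes higher and 11.2% lower, with a median of -0.18. This count fell to 9 and 1 without the block and to 6 and 1 without embryo SMH_133, and with all 11 libraries and no block none of these genes passed the test. The rise was that of Pfkp, the platelet-type phosphofructokinase, from 634, 600.2 and 632 CPM to 714, 786 and 793 CPM (0.30, adjusted p = 0.000541, edgeR). P4ha2, a prolyl hydroxylase of collagen, fell by 0.30 and the peptide hormone Adm fell by 0.28, beside -0.23 and -0.36 in Ctr + 4-OHT against Ctr, which were not called (adjusted p = 0.711 and 0.647, edgeR). Of 15 genes of fatty acid synthesis 8 fell and 1 rose (4 fell without the block), among them the desaturase Fads1 (-0.36, adjusted p = 6.96e-05, edgeR). Of 25 cholesterol synthesis genes 3 fell and 1 rose (1 and 1 without embryo SMH_133, and the falls were lost without the block), near the background, with a median of 0.04, whereas in Ctr + 4-OHT against Ctr that median was 0.31.

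The 12 largest falls were Acta2, Tagln, Cldn10, Padi2, Hes5, Veph1, B3galt5, Apoe, Abca1, Lpcat1, Mfge8 and Fam102a, with log2 fold changes between -0.88 and -1.99 (genes with a mean of at least 3 CPM). They were chosen as low against the 3 Ctr libraries with which Ctr + 4-OHT is also compared, so the values in Ctr + 4-OHT are given as a description. Acta2, smooth muscle actin, went from 3.85, 6.77 and 8.26 CPM to 0.953, 1.94 and 1.86 CPM in embryos SMH_128, SMH_132 and SMH_133, and Ctr + 4-OHT had 0.855 to 2.61 CPM. Its log2 fold change was -1.99 (SE 0.143, adjusted p = 5.96e-08, edgeR) against -1.81 (adjusted p = 0.105) in Ctr + 4-OHT against Ctr. Tagln, a contractile protein, had -1.59 and -1.40, the latter with an adjusted p of 0.0207. Acta2 is also a marker of mural cells. Of the 3 tested mural markers 2 fell (the 4 summed to 19.9 to 27.5 CPM in Ctr, 11.6 to 30.0 CPM in Smg6-iKO and 9.81 to 26.9 CPM in Ctr + 4-OHT), and their part in the result was not tested.

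Lpcat1, a phospholipid acyltransferase, went from 177, 167 and 156 CPM to 88.1, 90.5 and 91.3 CPM, with 82.7, 84.7, 88.0 and 90.6 CPM in the 4 Ctr + 4-OHT libraries. The 8 treated libraries lay between 82.7 and 91.3 CPM, all below the Ctr libraries. It had -0.89 on the log2 scale (adjusted p = 2.54e-09) in Smg6-iKO and -0.95 (adjusted p = 0.000587, edgeR) in Ctr + 4-OHT. Abca1, the cholesterol efflux transporter, had -0.96 and -1.45 (adjusted p = 1.01e-09 and 0.00592, edgeR). Fam102a had -0.88 and -0.95 (adjusted p = 1.57e-06 and 0.0109, edgeR), and Cldn10, a claudin, -1.24 and -0.90 (adjusted p = 6.12e-07 and 0.048, edgeR).

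Apoe, the lipid carrier of glia, went from 482, 478 and 306 CPM to 256, 254 and 138 CPM (-0.99, adjusted p = 1.59e-09, edgeR) and had -1.31 in Ctr + 4-OHT against Ctr (adjusted p = 0.113). The protein deiminase Padi2, the galactosyltransferase B3galt5, Mfge8, a secreted bridging protein of phagocytosis, and Veph1 had -1.23, -1.01, -0.88 and -1.05 in Smg6-iKO, and -1.40, -0.96, -0.74 and -0.68 in Ctr + 4-OHT, where none of these 4 was called (adjusted p = 0.0684, 0.351, 0.277 and 0.424, edgeR). For these falls 4-OHT and the Smg6 deletion cannot be told apart.

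**Figure D5:**
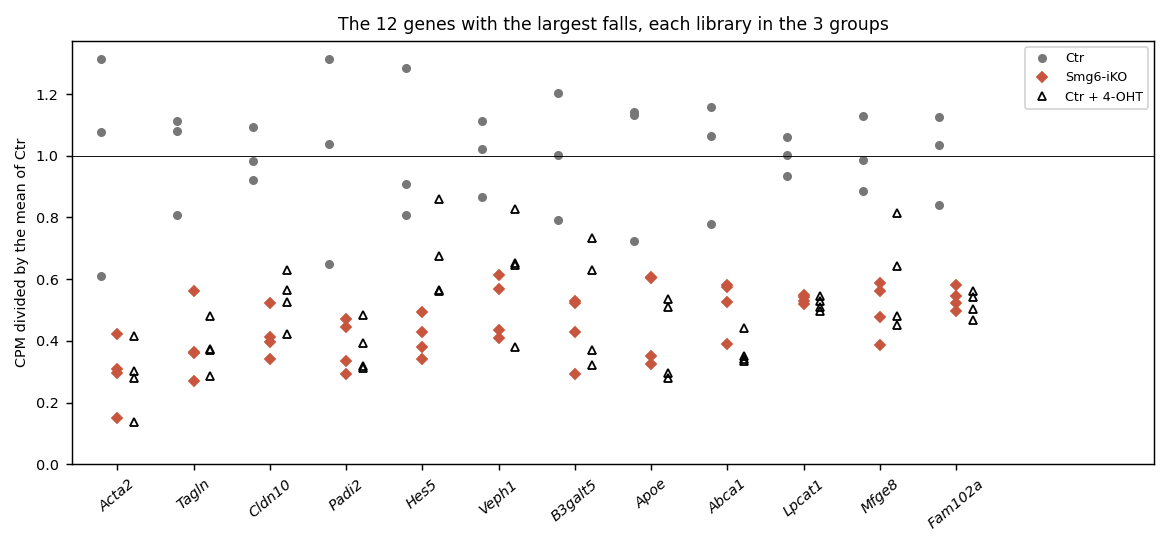
CPM of the 12 genes with the largest falls, divided by the mean of the 3 Ctr libraries, in each library of Ctr (grey circles), Smg6-iKO (red diamonds) and Ctr + 4-OHT (open triangles). Every Smg6-iKO library lies below every Ctr library of its gene, as the choice of these genes favours, and the triangles are compared with those same Ctr libraries.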

How the data were processed

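RNA of NPC cultures was sequenced from rRNA-depleted, strand-specific libraries as 50 bp single reads. Per the labels and the study's methods, the authors demultiplexed with bcl2fastq (1.8.4), aligned with STAR (2.5.4b) to GRCm38, and counted reads per Ensembl gene with featureCounts (1.5.0) on the reverse strand, leaving out reads that mapped to several places or overlapped several genes. The deposited values are these raw counts, 1 file per library, with 53801 gene identifiers, of which 53706 matched a symbol in the reference annotation of the same build. Totals were 26418249 to 33756875 counts over the 11 libraries, which limits low genes first.

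Libraries were grouped by the genotype and treatment labels. The 7 libraries of Smg6-iKO and Ctr were fitted with edgeR (4.0.16, R 4.3.3) by the quasi-likelihood test, with filterByExpr, TMM normalization and the terms embryo and treatment. The threshold was a Benjamini-Hochberg adjusted p of 0.05 over all tested genes, and SE is the log2 fold change divided by the root of the F statistic. Same-numbered libraries came from the same embryo, and their deviations from the group means correlated at 0.328, 0.399 and 0.425, against -0.265 to 0.0948 between different embryos. Ctr + 4-OHT was fitted with Ctr in a separate fit with no block. CPM used TMM factors over all 11 libraries, and log2 differences of a pair used a prior count of 2. The study names no embryo term for its own fit, so counts without the block are given beside those of lists. Alternatives were limma-voom (3.58.1), DESeq2 (1.42.0), other normalizations, filters and samples left out. The fits were tested on simulated counts.

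The comparison, gene lists and named genes were chosen with earlier results of these data known. Named genes were Smg6, Esr1, Trp53, Foxm1, Dlx1 and Dlx2, the 12 largest rises and 12 largest falls among called genes with a mean of at least 3 CPM and 1 direction in the 3 pairs, and up to 4 called members per list with the largest fold changes. A few genes are not reported here. Smg1, Gas5, the Snhg genes, Rian, Gm10800, Atf4, Ddit4, Asns, Cdk1 and Orc4 were named after their values were seen. Promoter sequences came from RefSeq (GRCm38.p6), matched by symbol. Markers of microglia and erythroid cells and the Hox genes had no member that passed the filter.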

Additional observations from a re-analysis of the deposited data

Results flagged for a closer look

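In 14 of 206 groups of 4 libraries checked (103 genes in Smg6-iKO and in Ctr + 4-OHT), 1 library stood apart from the other 3 by more than Dixon's 95% critical value, which chance alone gives in about 1 in 20 groups. Most such values in Smg6-iKO were those of embryo SMH_128. In that library Snhg12 was high at 137 CPM (others 116 to 119), as were Dbf4 at 78.4 CPM (others 66.7 to 67.9) and Prom1 at 65.9 CPM (others 52.3 to 54.0). Trp53 was low there at 39.7 CPM (others 47.1 to 48.2), as were Sp8 at 6.16 CPM (others 8.22 to 8.44), Dlx2 at 3.22 CPM (others 5.78 to 6.07) and Pfkp at 714 CPM (others 786 to 793). Smg5 was high in Smg6-iKO of embryo SMH_133 at 143 CPM (others 132.4 to 133.7).

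In Ctr + 4-OHT, embryo SMH_129 had high values of 3 cell cycle and repair genes, with Cdk1 at 198 CPM (others 160.1 to 166), Dbf4 at 110.7 CPM (others 90.4 to 91.1) and Rad51ap1 at 39.1 CPM (others 31.6 to 32.7). Embryo SMH_125 was low for Trp53 at 31.1 CPM (others 42.5 to 45.2). Abca1 was high in embryo SMH_126 at 49.9 CPM (others 37.9 to 39.6), and Trib3 was low in embryo SMH_131 at 15.6 CPM (others 18.97 to 19.13).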

How the results depend on the processing

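The number of genes called between Smg6-iKO and Ctr was 3854 with the embryo as block and 1663 without the block. DESeq2 called 2042 genes with the block and 2407 without it, a test against a minimum log2 fold change of 0.2 called 789, and a fit to all 11 libraries without the block 796. Leaving out each embryo in turn with the block kept gave 1742 to 5164 genes. After seeing the data, the gene length correction was also run without the block (1955 genes), and each library was left out without the block, which gave 570 to 2524 genes: 578, 574 and 1018 without Ctr of embryos SMH_128, SMH_132 and SMH_133, and 843, 2524, 986 and 570 without Smg6-iKO of embryos SMH_127, SMH_128, SMH_132 and SMH_133. Between Ctr + 4-OHT and Ctr, where 39 genes were called, no filter on low counts gave 198, DESeq2 168 and all 11 libraries 60, and leaving out 1 library gave 5 to 54 genes. Of 100 named genes called with the block, 86 were also called without it and 61 under all 16 alternatives. Esr1, not called, changed sign without the block to 0.037 without Ctr of embryo SMH_133, 0.015 without Smg6-iKO of embryo SMH_128 and 0.00489 without Smg6-iKO of embryo SMH_132. Trp53, not called either, lay between -0.011 (without embryo SMH_132) and 0.096 (without embryo SMH_128). The cause of these differences was not tested. With 2 residual degrees of freedom, calls with the block lean on the spread shared across genes, and changes of low genes were limited by counts.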

Other observations

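Further lists are given against the same background of 10.3% of genes called higher and 11.2% lower. Of 55 clustered protocadherins, adhesion molecules of neurons, 6 rose and the other 49 did not pass the test, at a median of 0.14 (4 rose without the block, 1 by DESeq2 with it, 10 without embryo SMH_128 and 2 without embryo SMH_133). Of 29 aminoacyl-tRNA synthetases and amino acid transporters, 13 rose and 3 fell (8 and 1 without the block), a list that shares members with that of ATF4. Of 26 genes of FGF, EGF and ERK feedback 9 rose and 2 fell, but 2 rose and 1 fell without the block. Oligodendrocyte lineage genes rose in 9 of 22 and fell in 3, of which the test without the block called 1 fall alone, and 5 rose without embryo SMH_132. Primary microcephaly genes, most of which act at centrosomes and spindles, fell in 12 of 26 and rose in 1 (10 fell without the block and 7 without embryo SMH_133), a list that overlaps with mitosis.

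Of 25 NRF2 targets of the oxidative stress response 8 fell and 2 rose (6 and 2 without the block, 13 and 3 without embryo SMH_128). The glutathione transferases Gsta4 and Gstm1 fell by 0.52 and by 0.52 (adjusted p = 5.63e-05 and 1.32e-06, edgeR), while in Ctr + 4-OHT against Ctr they had -0.52 and -0.49, not called (adjusted p = 0.306 and 0.53). The efflux transporter Abcc4 rose by 0.55 (adjusted p = 4.91e-05, edgeR), beside 0.01 in Ctr + 4-OHT. Selenoprotein genes, whose UGA codons can be read as stop codons, fell in 7 of 21 and rose in 3 (2 and 1 without the block and also without embryo SMH_133). Extracellular matrix and adhesion genes rose in 11 of 50 and fell in 6, against 2 and 2 without the block, 18 and 5 without embryo SMH_132 and 9 and 15 without embryo SMH_128. The list's pair medians were 0.14, -0.09 and 0.03 in embryos SMH_128, SMH_132 and SMH_133, where those of the 5 meningeal fibroblast markers were 0.73, -0.48 and 0.04. Of these markers 1 was called higher, 3 higher without embryo SMH_132, and 1 higher and 4 lower without embryo SMH_128. The summed level of both lists was highest in Smg6-iKO of embryo SMH_127, at 9497 CPM and 1512 CPM, and the markers' part in the result was not tested. Among the matrix genes Mmp14, a membrane-bound metalloproteinase, stood at 127.7, 124.9 and 115 CPM in Ctr and 82.1, 79.5 and 78.5 CPM in Smg6-iKO of embryos SMH_128, SMH_132 and SMH_133, and its log2 fold change was -0.61 (adjusted p = 1.31e-07, edgeR), with -0.60 in Ctr + 4-OHT against Ctr (adjusted p = 0.00693). The collagen gene Col18a1 rose by 0.44 (adjusted p = 7.58e-05, edgeR), beside -0.07 in Ctr + 4-OHT.

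The counts of the remaining lists were mostly small, and the block and single embryos moved many of them. Cytoplasmic mRNA decay factors fell in 11 of 50 and rose in 1, with 4 falls without the block and 2 without embryo SMH_133. BMP and TGF-beta genes fell in 10 of 39 and rose in 1, with 2 falls without the block and 5 without embryo SMH_133. Wnt genes fell in 8 of 32 and rose in 3 (6 and 1 without the block). Imprinted genes rose in 8 of 37 and fell in 6 (4 and 1 without the block, 3 and 2 without embryo SMH_133), and interferon-stimulated genes rose in 4 of 36 and fell in 5 (1 and 2 without the block, and 13 falls without embryo SMH_128). Immediate-early genes rose in 4 of 25 and fell in 3, the falls being lost without the block. Genes of the estrogen response rose in 4 of 15 and fell in 2, and without the block 1 fall alone was called. Telomere genes rose in 3 of 18 and fell in 4 (1 and 2 without the block), and the BCL2 family rose in 3 of 14 and fell in 2 (1 and 1 without the block). Of 10 cyclins and kinases of G1 4 fell and 1 rose, and without the block 2 fell. Of 15 polyamine and antizyme genes 3 rose and of 11 exon junction complex genes 2 rose, with 1 rise in each without the block. Of 9 splicing kinases 3 fell and of the 7 mitochondrially encoded proteins tested 3 fell, and without the block these calls were lost. The other members of these 4 lists did not pass the test. The markers of the oligodendrocyte lineage summed to 359 to 392 CPM in Ctr and 344 to 418 CPM in Smg6-iKO.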
